A study of Mus musculus with 4 samples.

Results

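The livers compared here came from mice that had received ethylbenzene only in a first exposure, 7 days before a second injection of phosphate-buffered saline (group E+P), and from mice given saline both times (group P+P). Members were all genes that the array named by a single symbol. Of 18193 such genes, 11513 passed a filter on low signals and were described by their ratio, and 6859 of these counted as well-expressed. Gene expression was measured on 4 Affymetrix mouse arrays, of which E+P and P+P were 2. All mice were C57BL/6J, 2 months old, and their liver RNA was extracted 5 h after the last injection. The first exposure consisted of 2 intraperitoneal doses given 24 h apart, each 7 mmol per kg of ethylbenzene or an equal volume of saline. In E+P and P+P the last injection was saline. Equal schedules ending in ethylbenzene gave the groups P+E (saline first) and E+E (ethylbenzene both times), whose arrays entered the normalization and the signal levels required of a gene, and are otherwise used below for comparison. Pools of 3 mice made up P+P and E+P, and pools of 5 mice made up P+E and E+E. Each pool was hybridised to 1 array, so there was no replicate, no p-value was computed, and every fold describes 2 arrays rather than the treatments in general. The sex of the mice was not given in the sources used here.

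Ethylbenzene is an aromatic solvent that the liver oxidises, mainly through cytochrome P450 enzymes such as CYP2E1. Many lipophilic chemicals also activate the nuclear receptors CAR and PXR, which raise the transcription of drug-metabolising genes, with Cyp2b10 the usual mouse marker of CAR activity. Inflammation acts on hepatocytes through cytokines, among them interleukin 6, and makes them secrete acute phase proteins, while Kupffer cells are the resident macrophages of the liver sinusoids. Secreted proteins are folded by chaperones of the endoplasmic reticulum (ER), whose genes share a promoter element read by the unfolded protein response.

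A ratio below is the difference of log2(signal + 43.2) between E+P and P+P after quantile normalization of the 4 arrays, and a positive value means a higher signal on E+P. The pseudocount of 43.2 shrinks ratios of genes with low signals. A gene had to reach a mean signal of about 120.0 to pass the filter and about 403.7 to count as well-expressed. Since this mean runs over all 4 arrays, a gene such as Cyp2b10 counts as well-expressed through its signals on P+E and E+E. Each gene is represented by its brightest probe set, and where the array held another probe set past the filter, the next brightest served as a check within the same arrays. Where 1 of the signals lay below 120.0, that level took its place and the fold is a lower bound, written with "at least". No fold is given where both did. Signals of a gene on all arrays are listed in a fixed order, first P+P, then E+P, then P+E and last E+E.

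The labelled tissue was borne out by hepatocyte transcripts, with Alb (serum albumin) at 163590 on P+P and 166298 on E+P, and Cyp3a11 at 121430 and 119053. The 14 hepatocyte markers past the filter had a median ratio of -0.03. The P+P array stood apart from the other arrays in some control probe sets. Ribosomal 18S RNA, read by 3 probe sets, had a geometric mean deposited signal of 1872 on P+P, whereas the others, in the order E+P, P+E, E+E, had 122.0, 145.2 and 182.3. That of the Actb controls was 8928 on P+P against 22081 to 30540 on the other arrays, while Gapdh controls lay between 54119 and 60216 and the hybridisation spikes between 9868 and 15057. The ratio of 3' to 5' signal for Pcx, a gauge of how far the labelled cRNA reached towards the 5' end, was 23.51, 7.21, 6.15 and 12.03 in the same order, with P+P first. For Actb it lay between 3.48 and 4.55 and for Gapdh between 0.91 and 1.06. P+P is the reference of every ratio below, and the part of these differences in the results was not tested.

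Differences between E+P and P+P were small for most genes. The median absolute deviation of the ratios of well-expressed genes was 0.18. At least 2-fold higher on E+P were 297 genes past the filter (2.58%) and at least 2-fold lower were 314 (2.73%). Among well-expressed genes these counts were 38 (0.554%) and 34 (0.496%). At the smaller size of 1.5-fold, 896 genes past the filter were higher (7.78%) and 1011 were lower (8.78%), and 217 well-expressed genes were higher (3.16%) and 246 were lower (3.59%). The median over all genes past the filter was -0.01, with 5530 of them above 0.

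**Figure D1:**
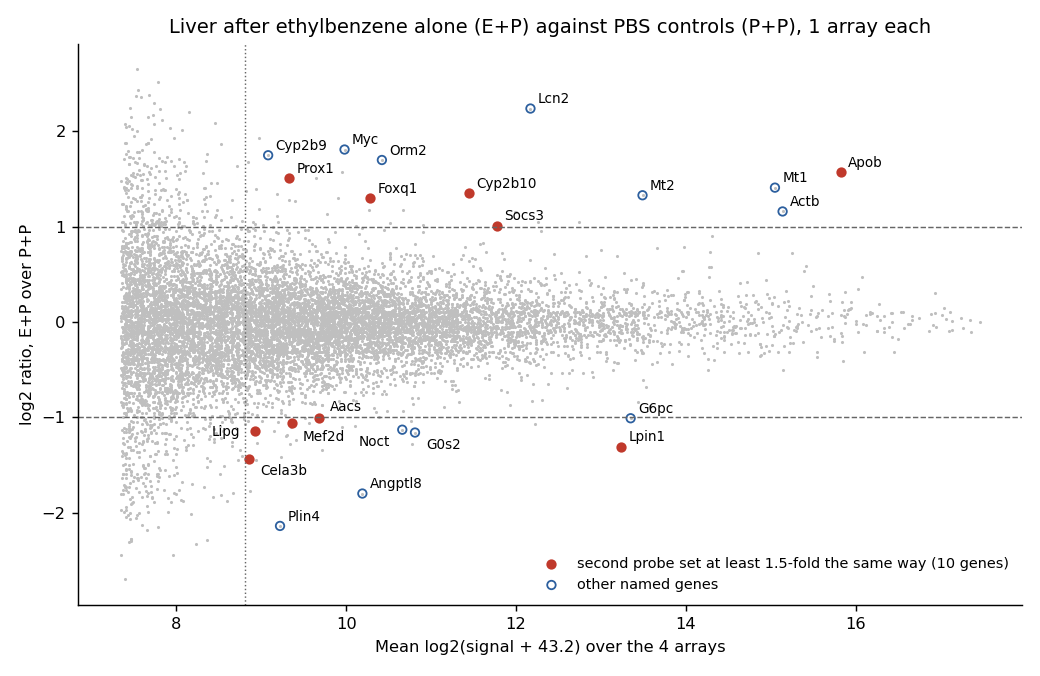
The log2 ratio of E+P over P+P (vertical axis) is plotted against the mean log2(signal + 43.2) over the 4 arrays (horizontal axis) for 11513 genes past the filter, each a point from 1 array a group. Dashed lines mark 2-fold, the dotted line marks the well-expressed level, red points are the 10 genes whose other probe set differed at least 1.5-fold the same way, and open circles are other named genes such as Lcn2 (2.24) and Plin4 (-2.14).

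Probe sets of one gene often disagreed. Of the 72 well-expressed genes at least 2-fold apart, 30 had another probe set past the filter. That probe set was at least 1.5-fold apart the same way for 11 genes and had the opposite sign for 11, and the sign was shared by 19 (63.3%). Over all 3684 well-expressed genes with such a pair, the sign was shared by 2016 (54.7%), and Pearson's r between both ratios was 0.11 (Spearman's rho 0.12). This r is across genes that share the same 2 arrays, and genes are not independent replicates. The same measure was 0.10 for E+E over P+E, which also differ in the first exposure only. It was 0.58 for P+E over P+P and 0.61 for E+E over E+P, the pairs that differ in the last injection, where 354 and 379 well-expressed genes were at least 2-fold higher. Many genes named below have a single probe set past the filter, and where another exists it is given for most of them.

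**Figure D2:**
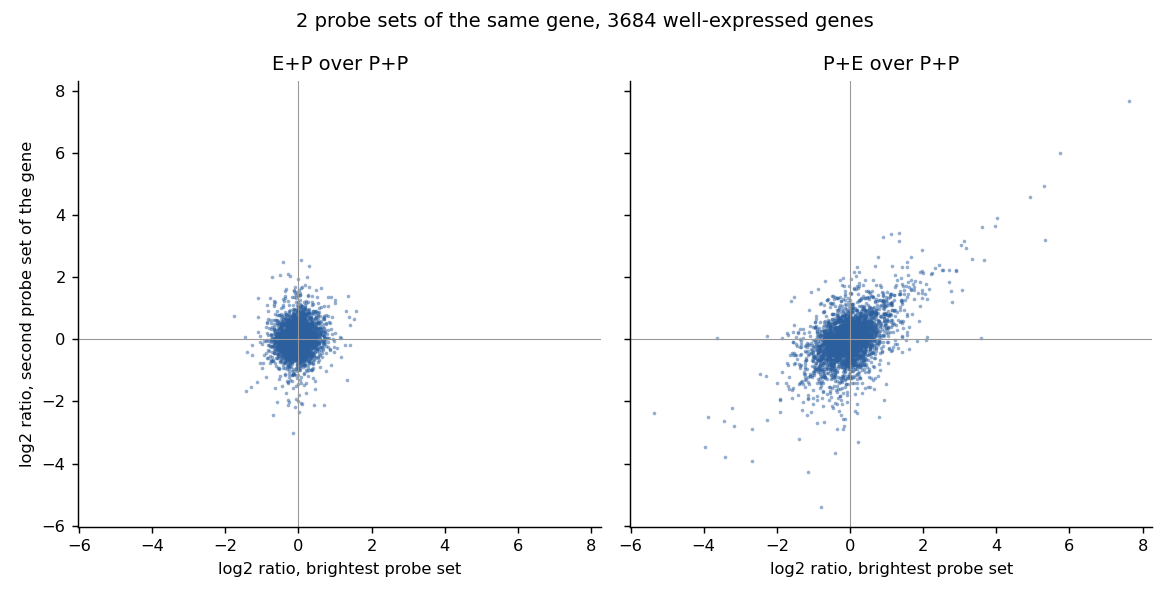
For 3684 well-expressed genes, the log2 ratio of the brightest probe set (horizontal axis) is plotted against that of the next brightest probe set of the same gene (vertical axis), for E+P over P+P (left) and, on the same scale, P+E over P+P (right). Each point is 1 gene; the left cloud is round (r = 0.11) and the right one is drawn out along the diagonal (r = 0.58).

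The place of each array was also noted for the genes apart by at least 2-fold. Of the 38 higher well-expressed genes, P+P lay outside the range of the other 3 arrays for 32 (84.2%) and E+P for 17 (44.7%). Of the 34 lower ones, P+P lay outside for 16 (47.1%) and E+P for 24 (70.6%). Over all well-expressed genes these shares were 51.3% for P+P and 47.1% for E+P. The higher side was thus mostly made of genes with a low signal on P+P, and the lower side of genes with a low signal on E+P. These genes were picked by the same 2 signals, so the shares are a description.

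Of the 11 genes whose probe sets supported a 2-fold difference, 1 had only a predicted name, and the others were Cyp2b10, Apob, Prox1, Foxq1 and Socs3 on the higher side and Lpin1, Lipg, Aacs, Mef2d and Cela3b on the lower side. Cyp2b10, a cytochrome P450 gene of the CAR pathway, had signals of 126.1, 387.7, 33311 and 25103. Its ratio was 1.35, and its next probe set, at 110.3 and 365.1, gave 1.41. The E+P signal was thus above P+P in both probe sets and far below the signals 5 h after ethylbenzene. Socs3, a feedback inhibitor of cytokine signalling, was placed likewise, at 621.3, 1292, 10829 and 15753, with ratios of 1.01 and 1.26 in its probe sets.

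Apob encodes the structural protein of very low density lipoprotein. Its signal was 27987 on P+P and 82975 on E+P, a 2.96-fold difference, and the other 2 arrays had 62547 and 78771, so that P+P was the low array. The other Apob probe set, at 833.9 and 1596, gave 0.90. Prox1, a homeobox transcription factor of hepatocytes and lymphatic endothelium, had 288.5, 902.9, 710.1 and 689.1 in its brightest probe set (1.51), where P+P was the low array, and 305.8, 506.2, 370.3 and 351.4 in the next (0.65), where E+P was the high array. Foxq1, a forkhead transcription factor, was instead high on E+P alone, at 2379 against 925.1 to 1005 on the other arrays, with ratios of 1.30 and 0.90.

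On the lower side, Lpin1, the phosphatidate phosphatase that makes diacylglycerol for triglyceride synthesis and also acts as a transcriptional coactivator, had signals of 22710, 9102, 7450 and 5653. Its probe sets gave -1.31 and -1.52. Lipg, which encodes endothelial lipase, had 1755, 772.7, 238.7 and 92.2 with ratios of -1.14 and -1.38. Both genes were thus highest on P+P, intermediate on E+P and lowest after a last injection of ethylbenzene. Aacs, the acetoacetyl-CoA synthetase that turns ketone bodies over to lipid synthesis, had 2951 on P+P and 1445 on E+P (ratios -1.01 and -0.93). Mef2d, a MADS-box transcription factor, had 681.8 and 305.2 (ratios -1.06 and -0.76).

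Cela3b encodes a pancreatic elastase. Its signal was 132.5, 21.4, 2052 and 1903. Since the E+P signal lay below the filter level, the ratio of -1.44 amounts to a fold of at least 1.1 only, and its next probe set had 386.0 and 94.0. Of 24 pancreatic acinar genes measured, 18 passed the filter, with a median of 0.06, and their signals summed to 5023 on P+P and 4531 on E+P against 12572 and 12651 on the arrays after ethylbenzene. Their part in the Cela3b difference was not tested. The size of 2-fold was kept under each of the 11 alternative settings by Apob, Prox1, Foxq1, Lpin1 and Lipg, but not by Cyp2b10 (0.98 at the least), Socs3 (0.91), Aacs (-0.96), Mef2d (-0.81) or Cela3b (-0.14).

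**Figure D3:**
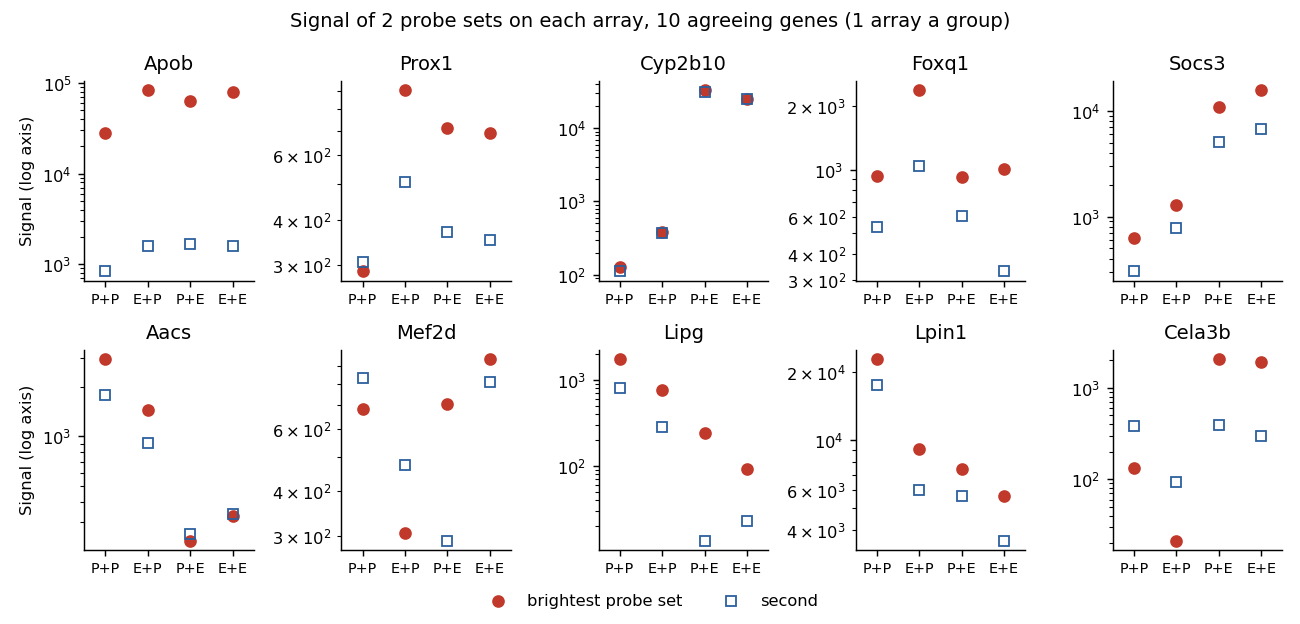
Quantile-normalized signal (vertical axis, log scale) on the 4 arrays for 10 genes, as red circles for the brightest probe set and open blue squares for the next brightest; each point is 1 array of 1 pool, with no error bar. The E+P points of Cyp2b10 and Socs3 lie just above P+P and far below P+E and E+E, while P+P is the lowest array for both probe sets of Apob.

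At 1.5-fold in both probe sets, 23 well-expressed genes were higher and 21 were lower on E+P. These 44 came from 238 well-expressed genes at least 1.5-fold apart that had another probe set past the filter. For 94 of the 238 the other probe set had the opposite sign, and the sign was shared by 144 (60.5%), most of them by less than 1.5-fold in the other probe set. Among the higher ones was Nr1i2, which encodes PXR, at 596.6 on P+P and 1170 on E+P (0.92 and 0.73). The others included receptors and signalling genes: Il6ra, the interleukin 6 receptor alpha chain (768.6 and 1254), Esr1, the estrogen receptor (1072 and 1631), Nr2f2, the orphan receptor COUP-TFII (721.5 and 1247), and Avpr1a, the vasopressin receptor of hepatocytes (451.2 and 818.4). Among the lower ones were Acacb, the mitochondrial acetyl-CoA carboxylase (1296 and 767.4), Me1, the cytosolic malic enzyme that supplies NADPH (13663 and 8914), Ppp1r3c, a glycogen-targeting subunit of protein phosphatase 1 (1971 and 1084), and Cyp2j6, an epoxygenase (1465 and 841.0). Serpina4-ps1, a pseudogene of the serpin family, had 32351 on P+P and 17544 on E+P (ratio -0.88).

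The highest ratios among well-expressed genes belonged to Lcn2 (2.24), Acnat2 (1.93), Myc (1.81), Cyp2b9 (1.75), Orm2 (1.70) and Sh3bp2 (1.68), followed by Dhdh, Apob, Gdap10 and Prox1. Acnat2, a peroxisomal acyltransferase that conjugates amino acids, had 77.8, 418.1, 1061 and 983.0, a fold of at least 3.48 from P+P to E+P. Sh3bp2, an adaptor protein of immune cells, had 63.1, 298.1, 1022 and 1095, at least 2.48-fold. Both were lowest on P+P and highest after a last injection of ethylbenzene. Dhdh, a dihydrodiol dehydrogenase that acts on metabolites of aromatic hydrocarbons, had 592.5, 1843, 730.8 and 976.8 (1.57), and Gdap10 had 691.2, 2054, 471.5 and 468.8 (1.51), so that both were highest on E+P.

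The lowest ratios belonged to Plin4 (-2.14), Angptl8 (-1.80), Sbno2 (-1.77), Ldhb (-1.45) and Cela3b (-1.44), followed by Nt5dc3, Cox8c, Lpin1, H2bc22 and Tnfrsf12a. Ldhb, the B subunit of lactate dehydrogenase, had 592.2, 189.8, 726.7 and 464.1, but its next probe set had 512.3 on P+P and 539.5 on E+P (0.07). Sbno2, a transcriptional regulator, had 430.4 and 95.3, while its next probe set, below or near the filter level at 56.9 and 123.9, gave 0.74. Tnfrsf12a, the receptor of the cytokine TWEAK, had 1407 and 553.8, with ratios of -1.28 and -0.51. Cox8c, a cytochrome oxidase subunit gene, had 1384 and 521.2 (-1.34), and the histone gene H2bc22 had 693.0 and 259.8 (-1.28).

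Among genes of drug metabolism, Cyp2b9, Cyp2b10, Nr1i2 and Aldh1b1 were at least 1.5-fold higher on E+P and Cyp2c39 was at least 1.5-fold lower. Of 40 measured targets of CAR and PXR, 36 passed the filter. Their median was 0.10, with 27 above 0, and the 4 higher ones compare with 7.78% of all genes. Cyp2b9, a close relative of Cyp2b10, had 120.6, 509.1, 971.5 and 890.3 (ratio 1.75). Probe sets of related cytochrome P450 genes can share signal, so these values are uncertain to that extent. Nr1i3, which encodes CAR itself, had 3695 and 4804 (0.37). Cyp2c29 had 37306 and 38855 (0.06), Cyp2c55 had 1346 and 1000 (-0.41), and Cyp3a11 gave -0.03. Cyp2c39 had 236.9 and 80.2, a fold of at least 1.97, and Aldh1b1, an aldehyde dehydrogenase, had 911.5 and 1392 (0.59).

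Enzymes on the route by which the solvent is oxidised and conjugated stayed within 1.5-fold, for each of the 20 past the filter (21 measured), with a median of 0.05 and a range from -0.18 to 0.31. Cyp2e1 had 140860 on P+P and 144274 on E+P, and Cyp2f2, another P450 that oxidises aromatic solvents, had 63746 and 56105. The aldehyde dehydrogenase Aldh2 had 61282 and 67328 (0.14, and -0.25 in its next probe set), and the glycine acyltransferase Glyat had 17217 and 16260 (-0.08 and -0.35). Targets of the AHR (6 past the filter, median 0.00) had no member 1.5-fold apart, and Cyp1a2 had 37109 and 39431. Of 39 genes of the NRF2 and glutathione list, all past the filter, 1 was at least 1.5-fold higher and 2 were at least 1.5-fold lower. These shares of 2.56% and 5.13% were below the 7.78% and 8.78% of all genes. Nqo1, an NRF2 target, had 328.0 and 210.7 (-0.55), and Hmox1, which encodes heme oxygenase 1, had 469.8 and 404.1 (-0.20).

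Some acute phase genes were higher on E+P, while the serum amyloid A genes were not. Of 31 measured, 30 passed the filter. Their median was 0.24, with 24 above 0. By at least 1.5-fold, 6 were higher, against 7.78% of all genes, and none was lower. One of the 6, Orm3, had signals below the filter level on both arrays. The 9 other probe sets of list members had a median of 0.03, with 5 above and 3 below 0. Lcn2, whose product sequesters bacterial iron carriers, had 96.8, 620.1, 58918 and 81707, which is at least 5.17-fold from P+P to E+P. Orm2, an orosomucoid gene, had 176.8, 673.0, 4622 and 4814 (ratio 1.70). Itih3, an inter-alpha-trypsin inhibitor heavy chain, had 23522 and 35468 (0.59), Serpina3n, a serine protease inhibitor, 5470 and 8193 (0.58), Cp, ceruloplasmin, 31797 and 45917 (0.53, and 0.30 in its next probe set), and Hp, haptoglobin, 39171 and 54169 (0.47). Saa1 had 2831 and 2145 (-0.39), but its next probe set, at 1398 and 1423, gave 0.03. Saa2 had 537.8 and 471.3 (-0.18), and Hamp, which encodes the iron hormone hepcidin, had 90924 and 73384 (-0.31, and -0.27 in its next probe set). The orosomucoid and serum amyloid A genes are families whose probe sets can share signal. Between E+E and P+E, which share no array with this pair, the same list had a median of 0.08, with Lcn2 at 0.47 and Orm2 at 0.06.

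Complement and coagulation genes were 28 of 33 above 0, with a median of 0.09 and no member 1.5-fold apart. Metallothioneins bind zinc and copper. Mt1 had 4799 on P+P and 12826 on E+P (1.41) and Mt2 had 1132 and 2907 (1.33), against 145878 and 72015 on P+E. The other Mt1 probe set, near the filter level at 134.6 and 115.1, gave -0.17. Mt1 and Mt2 are close copies, and signal may be shared between them. Slc30a10, a manganese exporter, had 248.9 and 448.2, with 0.75 and 0.54 in its probe sets. The median of the 18 genes of metal handling past the filter was 0.01.

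Transcripts of Kupffer cells were higher on E+P as a list. Of 25 markers measured, 24 passed the filter, with a median ratio of 0.48. Of these, 22 were above 0, 9 were at least 1.5-fold higher and none was at least 1.5-fold lower, against 7.78% of all genes at least 1.5-fold higher. The 7 other probe sets of list members had a median of 0.24, with 5 above and 2 below 0. Clec4f, a lectin receptor largely restricted to Kupffer cells, had 1855, 2759, 1689 and 2118. Vsig4, the complement receptor of resident macrophages, had 2285, 3647, 2139 and 2450. Cd5l, a secreted macrophage scavenger protein, had 2930, 4689, 1848 and 2451. All of these were highest on E+P.

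The genes of the complement C1q subunits, which macrophages make, also stood higher on E+P. C1qa had 1496 on P+P and 2918 on E+P (0.94), C1qb 1364 and 2115 (0.62, and 0.24 in its next probe set) and C1qc 1124 and 1802 (0.66). Marco, a scavenger receptor, had 346.5 and 659.7 in its brightest probe set (0.85) and 147.2 and 629.2 in the next (1.82). Mpeg1, a pore-forming protein of macrophages, had 1379 and 2275 (0.70), and Timd4, a receptor for dying cells, had 164.6 and 265.3 (0.57). Ccl24, an eosinophil-attracting chemokine, had 57.9 and 224.7, a fold of at least 1.87. Adgre1, which encodes F4/80, had 1325 and 1895 (0.50) and Csf1r, the receptor for macrophage colony-stimulating factor, 5008 and 6760 (0.43, and 0.29 in its next probe set).

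Other markers of the list did not share this. Cd163, the hemoglobin scavenger receptor, had 706.0 and 714.3 (0.02), Slc40a1, the iron exporter ferroportin, 9251 and 9353 (0.02, and -0.19 in its next probe set) and Cd68, a lysosomal glycoprotein, 585.4 and 530.9 (-0.13). Spic, a transcription factor of iron-handling macrophages, was under the filter, at 160.6 on P+P and 56.7 on E+P. The summed signal of the 24 markers past the filter, without Spic, was 51326, 67021, 38315 and 45612 in the fixed order of the arrays. That is 1.31-fold from P+P to E+P. In whole liver, more cells of a type and more RNA per cell cannot be told apart. The list's median lay between 0.43 and 0.59 under the alternative settings and was 0.11 for E+E over P+E.

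Markers of other blood and vessel cells did not show a shift of that size. Of 21 markers of infiltrating monocytes and macrophages, 15 passed the filter, with a median of 0.03, although their summed signal was 1.26-fold higher on E+P. The medians were 0.14 for neutrophils (8 genes past the filter), -0.11 for T and NK cells (7), 0.07 for B and plasma cells (9) and -0.01 for sinusoidal endothelium (26). Stellate cell and matrix genes had 0.08 (35) and cholangiocyte genes 0.05 (10). The muscle list had a median of 0.67 over 10 genes past the filter of 20 measured. Its summed signal was only 1591 on P+P and 2421 on E+P, and its highest ratio belonged to Acta1, at 28.2 and 290.9. The mesothelial list had a median of -0.39 over 8 genes, with 1 of them well-expressed.

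**Figure D4:**
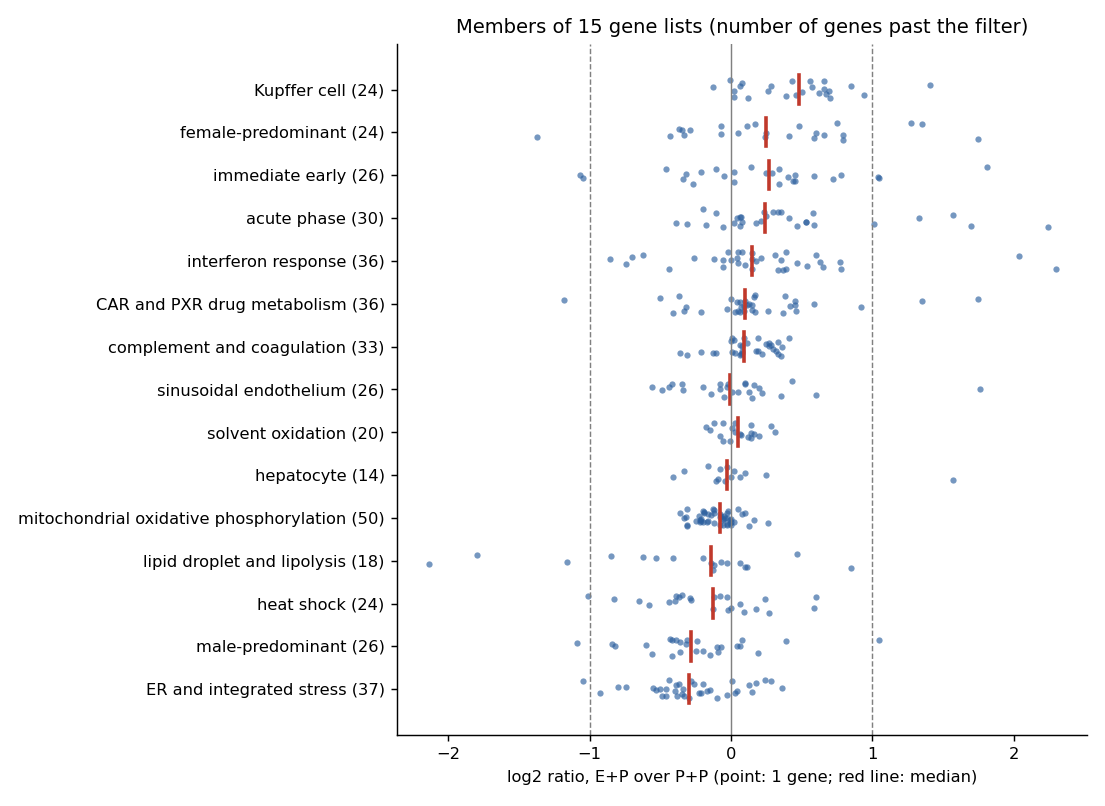
The log2 ratio of E+P over P+P (horizontal axis) is plotted for each member past the filter (points) of 15 gene lists (rows, with the number of genes), with the median as a red line and dashed lines at 2-fold. Among the lists shown, Kupffer cell markers (median 0.48) lie farthest to the right and ER stress genes (median -0.30) farthest to the left. Oxidative phosphorylation and solvent oxidation genes are packed near 0. The muscle (median 0.67) and mesothelial (median -0.39) lists, with medians farther from 0, are not shown.

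Genes of ER protein folding and the integrated stress response were lower on E+P as a list. All 37 measured members passed the filter, with a median of -0.30. Of these, 28 were below 0, 4 were at least 1.5-fold lower and none was at least 1.5-fold higher, against 8.78% of all genes at least 1.5-fold lower. The share past 1.5-fold was thus close to that of all genes, and the lean of the list lay in smaller ratios. The 18 other probe sets had a median of -0.10, with 12 of them below 0. Promoters were searched for the ER stress response element, taken as CCAAT and CCACG separated by 9 bases on both strands. It was found for 9 members, and the printed ones are the 4 of these with the lowest ratios and the 2 with ratios above 0, so that both sides can be seen. The 200 bases before the start are from RefSeq (GRCm38.p6), with both parts of the element in capitals, as CGTGG and ATTGG where it lies on the opposite strand. The genes are Creld2 (chr15:88819446-88819645), Derl3 (chr10:75893198-75893397), Syvn1 (chr19:6046376-6046575), Hspa5 (chr2:34771890-34772089) and Dnajc3 (chr14:118937732-118937931) on the plus strand and Hsp90b1 (chr10:86705445-86705644) on the minus strand. Hsp90b1 held 2 elements, and the lone CCACG near the 5′ end of its stretch belongs to the one that begins farther from the start.
Creld2: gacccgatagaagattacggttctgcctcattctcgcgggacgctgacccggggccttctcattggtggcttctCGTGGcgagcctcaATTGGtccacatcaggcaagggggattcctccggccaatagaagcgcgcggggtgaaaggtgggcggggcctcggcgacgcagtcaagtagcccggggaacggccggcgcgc
Derl3: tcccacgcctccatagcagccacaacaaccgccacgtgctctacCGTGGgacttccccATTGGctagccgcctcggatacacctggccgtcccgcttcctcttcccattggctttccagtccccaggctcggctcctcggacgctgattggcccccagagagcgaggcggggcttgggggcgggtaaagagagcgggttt
Syvn1: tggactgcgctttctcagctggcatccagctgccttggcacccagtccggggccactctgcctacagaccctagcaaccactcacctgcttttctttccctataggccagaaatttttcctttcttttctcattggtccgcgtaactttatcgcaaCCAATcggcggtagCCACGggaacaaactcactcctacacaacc
Hspa5: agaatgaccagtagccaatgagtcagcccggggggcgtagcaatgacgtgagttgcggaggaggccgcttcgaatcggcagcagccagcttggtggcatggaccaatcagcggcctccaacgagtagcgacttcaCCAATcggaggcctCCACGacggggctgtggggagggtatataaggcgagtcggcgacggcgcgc
Dnajc3: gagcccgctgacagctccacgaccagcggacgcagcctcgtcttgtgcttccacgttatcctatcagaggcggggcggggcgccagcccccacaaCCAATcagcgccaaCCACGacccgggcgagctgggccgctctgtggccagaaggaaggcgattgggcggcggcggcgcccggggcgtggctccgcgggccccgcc
Hsp90b1: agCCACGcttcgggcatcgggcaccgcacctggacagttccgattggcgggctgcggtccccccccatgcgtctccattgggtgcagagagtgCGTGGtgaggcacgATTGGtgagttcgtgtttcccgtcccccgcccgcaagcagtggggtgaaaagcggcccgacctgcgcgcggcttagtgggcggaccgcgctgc

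The element was present in 9 of 35 promoters (25.7%) of 34 list genes and in 39 of 32851 promoters (0.119%) of all genes, over windows from 250 bases before to 50 bases after the start. A match is a string of letters and does not show binding. The list was put together from genes of the response that reads this element, so a high share of matches was built in. That share does not bear on the difference between E+P and P+P, and the ratios of the matched genes ran from -0.93 to 0.28. The matched genes were Hspa5, Calr, Derl3, Hsp90b1, Canx, Pdia6, Dnajc3, Creld2 and Syvn1. Creld2, a secreted folding factor, had 2208, 1139, 1110 and 2268 (ratio -0.93). Syvn1, the ubiquitin ligase of ER-associated degradation, had 2049, 1388, 1048 and 1427 (-0.55, and -0.43 in the next probe set). Derl3, a channel component of the same route, had 208.6 and 101.0, a fold of at least 1.74. Hspa5, which encodes the chaperone BiP, had 22225, 15753, 20473 and 20375 in its brightest probe set (-0.50), where E+P was the lowest array. The next had 12239, 9386, 8706 and 10792 (-0.38), with P+E lowest. Hspa5 had 3 probe sets past the filter, and its ratio ran from -0.53 to -0.17 under the alternative settings.

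The remaining matched genes were not uniform. Calr and Canx, the lectin chaperones calreticulin and calnexin, had ratios of -0.35 and -0.39, with -0.34 and -0.40 in their next probe sets. Pdia6, a disulfide isomerase, had -0.17. Dnajc3, a BiP cochaperone, had 3578 on P+P and 3983 on E+P (0.15), but its next probe set gave -0.15. Hsp90b1, the chaperone GRP94, had 11594 and 14119, with 0.28 and 0.30 in its probe sets. Other members without a match included Manf, a secreted factor of the stress response (8408 and 5791, -0.53), Herpud1, which recruits the degradation machinery (25470 and 18727, -0.44), and Xbp1, the transcription factor spliced by IRE1 (17742 and 13473, -0.40, and -0.05 in its next probe set). Atf4, the main effector of the integrated stress response, had 4699 and 4806 (0.03, and -0.11 in its next probe set), and its target Asns, asparagine synthetase, had 738.2 and 511.3 (-0.49). Nupr1 gave -0.74 in its brightest probe set and 0.86 in the next, and Atf3 lay below the filter level on both arrays. The list's median was between -0.34 and -0.25 under the alternative settings.

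**Figure D5:**
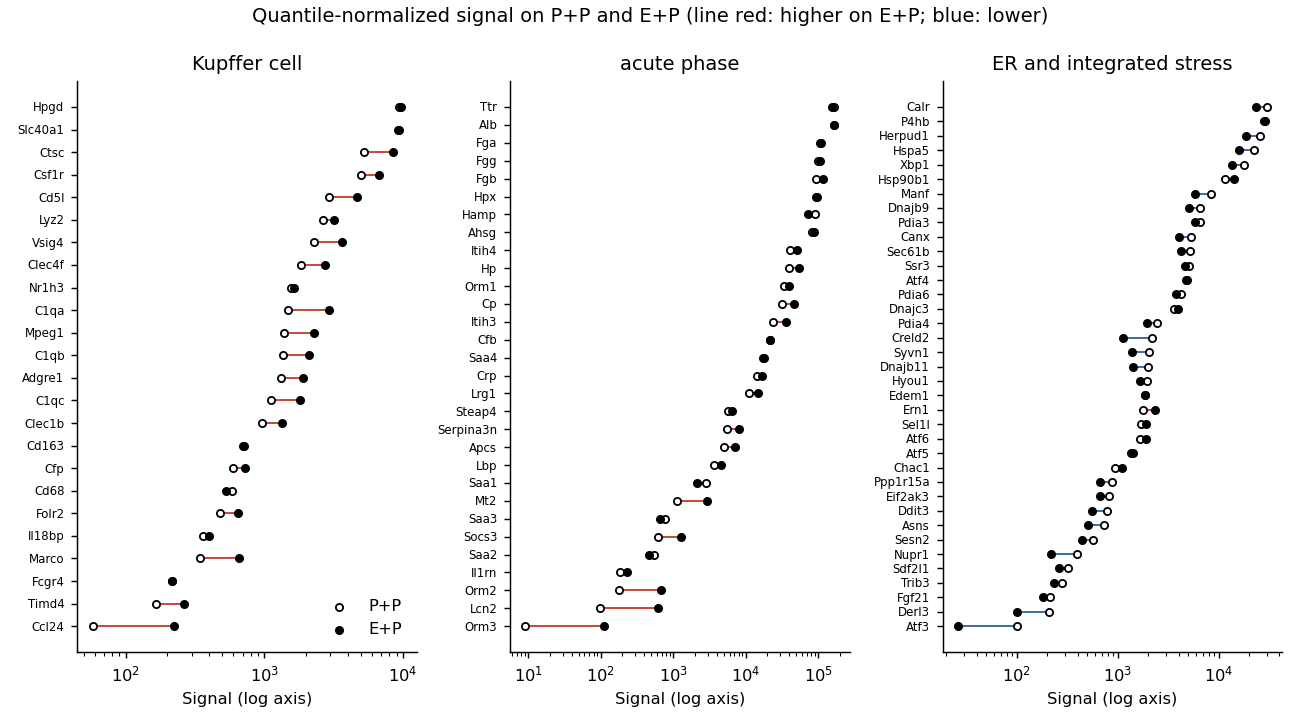
Quantile-normalized signal (horizontal axes, log scale) on P+P (open points) and E+P (filled points), 1 array each, for the members past the filter of the Kupffer cell (24), acute phase (30) and ER and integrated stress (37) lists, ordered by their P+P signal. Red lines join genes higher on E+P and blue lines genes lower on E+P; the first panel is mostly red, with 22 of 24 above 0, and the last mostly blue, with 28 of 37 below 0.

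Cytosolic heat shock genes had a median of -0.13 over 24 members past the filter of 25 measured. Bag3, a cochaperone of HSP70, had 870.5 on P+P and 411.4 on E+P (-1.01), and Hspa1b, an inducible HSP70 gene, had 1748 and 967.8 (-0.83, and -0.19 in its next probe set). Stip1, another cochaperone, had 771.6 and 1187 (0.59). By at least 1.5-fold, 3 members were lower (12.5%) and 2 were higher (8.33%), shares close to the 8.78% and 7.78% of all genes.

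Plin4 and Angptl8, genes of lipid storage and clearance, had the lowest ratios of the well-expressed genes. Plin4, a lipid droplet coat protein, had 662.1, 116.3, 1180 and 872.7, so that E+P was the low array by a fold of at least 5.52. Angptl8, an insulin-responsive inhibitor of lipoprotein lipase activity, had 7327, 2079, 350.8 and 255.1 (-1.80). G0s2, the inhibitor of adipose triglyceride lipase, had 4734, 2092, 1367 and 676.3 (-1.16). Angptl8 and G0s2 thus had the same order of arrays as Lpin1 and Lipg. The list of lipid droplet and lipolysis genes as a whole had a median of -0.14 over 18 members. Of these, 5 were at least 1.5-fold lower (27.8%), against 8.78% of all genes. Hilpda, a lipid droplet gene with a ratio of -0.85, had 56.5 and 12.1, below the filter level on both arrays. Lipe, hormone-sensitive lipase, was higher, at 248.3 and 481.7 (0.85).

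Fatty acid and triglyceride synthesis genes had a median of 0.02 over 30 past the filter of 32 measured. Of the 30, 5 were lower (16.7%) and 1 was higher (3.33%) by at least 1.5-fold, against 8.78% and 7.78% of all genes. The lower ones were Angptl8, Lpin1, Elovl3, Acacb and Me1, the other being Fads2, the delta-6 desaturase, at 3768 on P+P and 6217 on E+P (0.72, and 0.25 in its next probe set). Sterol synthesis genes had a median of 0.02. Nsdhl and Tm7sf2, enzymes of the later steps of cholesterol synthesis, each had a ratio of -0.66. Srebf2, which encodes the transcription factor of that pathway, had -1.10 in its brightest probe set and 0.72 in the next. Among PPAR-alpha and fatty acid oxidation genes (42 past the filter, median 0.03), Acot3, a peroxisomal acyl-CoA thioesterase, had 645.2 and 1618 (1.27) and Cyp4a14, a fatty acid omega-hydroxylase, had 8107 and 14066 (0.79). Apolipoprotein genes other than Apob lay within 1.5-fold.

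In glucose metabolism, G6pc, the glucose-6-phosphatase that releases glucose from hepatocytes, had 16133, 7977, 13685 and 6625 (-1.01). Both groups that had received ethylbenzene first were the lower ones. It was the only member at least 1.5-fold apart among 40 genes of gluconeogenesis, the urea cycle and amino acid catabolism, whose median was 0.06. Pfkfb3, which sets the level of fructose 2,6-bisphosphate, had 1521 and 776.1, with -0.93 and -0.49 in its probe sets. Slc2a1, the glucose transporter GLUT1, had 642.4 and 1211, with 0.87 and 0.52. In the insulin and growth hormone axis, Irs2, an insulin receptor substrate, had 51.9 and 304.6, a fold of at least 2.54. Cish, a STAT5 target that damps growth hormone signalling, had 1132 and 2338 (1.02), and Igfbp1, a secreted binding protein of insulin-like growth factors, 3152 and 5900 (0.90).

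Genes that differ between male and female liver leaned in opposite directions. Male-predominant genes had a median of -0.28 over 26 past the filter of 28 measured, with 20 below 0. At the size of 1.5-fold, 4 were lower and 1 was higher, against 8.78% and 7.78% of all genes. The 7 other probe sets had a median of -0.16. Ugt2b38, a glucuronosyltransferase, had 2469 on P+P and 1138 on E+P (-1.09), Cyp4a12a, an arachidonate hydroxylase, 16494 and 9178 (-0.84), and Elovl3, a fatty acid elongase, 3459 and 1946 (-0.82). Hsd3b5, a steroid reductase, had 14795 and 11273 (-0.39) and Cyp7b1, the oxysterol hydroxylase, 26780 and 20037, with -0.42 and -0.56 in its probe sets. Mup3, a major urinary protein, had 119053 and 122547 (0.04). The higher one was Gadd45g, a growth arrest gene, at 1114 and 2359 (1.05).

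Female-predominant genes had a median of 0.25 over 24 past the filter of 30 measured, with 16 above 0. By at least 1.5-fold, 9 were higher, against 7.78% of all genes, and 1, Slc22a26, was lower. The 9 other probe sets had a median of 0.09, with 5 above and 4 below 0. Cyp2b9, Cyp2b10, Acot3 and Cyp4a14, given above, led the higher ones. Cux2, a female-specific repressor, had 481.2 and 745.5 (0.59). Of these 24, 14 were well-expressed, and the median of those was 0.37. The medians ranged from -0.36 to -0.23 for the male-predominant and from 0.14 to 0.37 for the female-predominant list under the alternative settings, and for E+E over P+E they were 0.02 and -0.15.

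Immediate early genes had a median of 0.27 over 26 past the filter of 31 measured, with 17 above 0. By at least 1.5-fold, 6 were higher, against 7.78% of all genes, and 2 were lower, a share close to the 8.78% of all genes. The lower ones, Ier3 (103.6 and 26.8) and Atf3 (100 and 26.2), had signals below the filter level on both arrays. Myc, a growth transcription factor, had 333.5, 1275, 1185 and 1649, and P+P was again the low array (1.81). Nr4a2, an orphan nuclear receptor, had 121.3 and 296.1 (1.04). Egr1 had 240.8 and 345.6 and Junb 316.3 and 448.6 (0.45 each). Interferon response genes had a median of 0.15 (36 past the filter), with 7 higher and 4 lower by at least 1.5-fold, against 7.78% and 8.78% of all genes. The highest were Dhx58, an RNA sensor (33.4 and 334.8, at least 2.79-fold), and Mx2 (15.2 and 196.2, at least 1.63-fold), both from signals near the bottom of the range. Mx1 had 175.6 and 87.9, at least 1.46-fold lower.

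Core clock genes had a median of -0.02 over 15 past the filter, with 7 above and 8 below 0. The 3 that were at least 1.5-fold apart, Per1, Per2 and Ciart, were lower, against 8.78% of all genes. Per2, a repressor of the clock, had 530.9 on P+P and 268.2 on E+P in its brightest probe set (-0.88) and 0.08 in the next, Per1 had 751.3 and 465.0 (-0.64), and Ciart, another clock repressor, had 1441 and 916.1 (-0.63). Arntl, which encodes the activator BMAL1, had 187.6 and 192.3 (0.03), but its next probe set, at 156.7 and 19.2, gave -1.68. Dbp, a clock-driven transcription factor, had 5653 and 5855 (0.05, and 0.31 in its next probe set). Among clock output genes (median -0.11, 30 past the filter), Noct, a rhythmic NADP phosphatase, had 5421, 2454, 897.2 and 487.2 (-1.13). The 17 other probe sets of the clock output list had a median of 0.25, with 13 above and 4 below 0. Bile acid synthesis genes had a median of -0.01, and Cyp7a1, its rate-limiting enzyme, had 7954 and 6194 (-0.36), while its next probe set, at 1487 and 1786, gave 0.26. Cell cycle genes had a median of 0.04 over 32 past the filter of 49 measured. Of the 32, 3 were at least 1.5-fold higher (9.38%) and 4 lower (12.5%), against 7.78% and 8.78% of all genes. Ccnd1, cyclin D1, had 1133 and 2214 (0.94), while its next probe set had 1063 and 1077. It had 3 probe sets past the filter. Under the 11 alternative settings, the mean of probe sets among them, its ratio lay between 0.77 and 0.97.

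Oxidative phosphorylation genes differed little but mostly one way. All 50 measured genes passed the filter and stayed within 1.5-fold, with a median of -0.08, a range from -0.36 to 0.26 and 41 below 0, and 23 of their 31 other probe sets were below 0. Proteasome genes had a median of -0.04 (31) and cytosolic ribosomal protein genes -0.05 (27). Actb, the beta-actin gene used in the control probe sets, had 18109 on P+P and 40569 on E+P in its brightest probe set (1.16) and 9579 and 6447 in the next (-0.57), so that its direction depended on the probe set. The brightest probe set had 44681 on P+E and 51122 on E+E, which leaves P+P as its low array. The next had 7844 on P+E and 9178 on E+E, so that there P+P was the highest array and E+P the lowest.

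The remaining lists had medians between -0.19 and 0.20. The ends of this range were glucocorticoid targets (29 genes past the filter) and adipocyte genes (8). Genes of p53 and DNA damage had -0.17 (25), liver transcription factors -0.14 (25) and class II antigen presentation genes 0.18 (6), of which all were above 0. In each of these lists the other probe sets had a median of the opposite sign. It was 0.12 for p53 genes (13 probe sets), 0.16 for liver transcription factors (13) and -0.07 for class II genes (3, with 2 below 0). Pericentral and periportal genes, which mark the ends of the liver lobule, had 0.09 (38) and 0.06 (29).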

How the data were processed

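Liver RNA pools of 4 groups were measured on 1 Affymetrix array each, with the titles giving the group. The authors deposited linear intensities for 45101 probe sets, and the mean left after trimming 2% at each end was 500.0 on every array. The software that summarised the probes was not given in the sources used here. Gene names came from the annotation of the platform and were brought up to date by Entrez number from a RefSeq table (GRCm38.p6) for 34741 probe sets. Of all probe sets, 34945 had 1 symbol, 932 had several, 9160 had none and 64 were controls. The median log2 signals of the arrays differed by up to 0.24. The deposited intensities were quantile-normalized over 4 arrays, and log2(signal + 43.2) was taken, where 43.2 is their 25th percentile. Genes passed at the 50th percentile of all probe sets and were well-expressed from the 75th. With 1 array per group, no test was made, and the precision is limited by the number of arrays.

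Named genes were well-expressed genes at least 2-fold apart with another probe set at least 1.5-fold the same way (10), the 10 highest and 10 lowest well-expressed ratios (20), list members at least 1.5-fold apart, and chosen genes of drug metabolism and stress. Clone names were left out. The members and the 54 lists were chosen with earlier results of these data known, and other genes named were picked after their values were seen. Of 1609 list memberships, 160 were not analysed here. The steps were tested on simulated data, with Python 3.11.15, numpy 2.4.6, pandas 2.3.3, scipy 1.17.1 and matplotlib 3.10.9.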

Additional observations from a re-analysis of the deposited data

Results flagged for a closer look

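Lists whose median had the opposite sign in the other pair of arrays that differ in the first exposure (E+E over P+E) were marked where both medians were at least 0.2 in size. The genes of ER and integrated stress had a median of -0.30 for E+P over P+P and of 0.24 for E+E over P+E. Ddit3, a stress transcription factor, had -0.46 and 0.94, and Pdia4, a disulfide isomerase, had -0.33 and 1.16. The muscle list had medians of 0.67 and -0.87, with Acta1 at 2.23 and -4.99. These differences were not tested, since each ratio rests on 2 arrays.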

How the results depend on the processing

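The 11 alternatives were the deposited scale, 3 other normalizations, 2 other pseudocounts, low signals set to the filter level, 2 filters, the mean of probe sets, and unique probe sets. With the pseudocount at the 50th percentile, the genes at least 2-fold apart numbered 93 on the higher and 117 on the lower side (297 and 314 in the report), or 24 and 19 of the well-expressed genes (38 and 34), and 4 of 11 were supported by another probe set. The filter at the 75th percentile gave 38 and 34, and no filter gave 1200 and 1312. Unique probe sets gave 21 well-expressed lower genes and 3 supported ones. The other settings left these counts within 1.5 times. Among named genes at least 1.5-fold apart, signs turned with unique probe sets for Mt1 (-0.17), Actb (-0.57), Tpm2 (-0.04), Kdm6a (-0.20), Srsf2 (0.06), Ezr (0.18) and Col1a2 (-1.01), and with the mean of probe sets for Col1a2 (-0.13), Nupr1 (0.06), Sbno2 (0.10) and Rbm25 (0.02). Rbm25 also turned as deposited (0.20), at a common 75th percentile (0.17), with quantiles over E+P and P+P (0.20) and with lowess centring (0.20). In the report its brightest probe set gave -0.85 and its next 0.19. The cause was not tested. Of smaller ratios, Saa1 (0.03), Arntl (-1.68) and Gadd45b (-0.36) turned with unique probe sets and Arntl (-0.83), Gadd45b (-0.35) and Tfrc (0.05) with the mean. Of 71 named genes at least 2-fold apart, 32 stayed so under each alternative that gave them a value, which was not all 11 for some, and none of the 8 lists with a median of at least 0.2 in size changed sign. The mean of probe sets could not be run for the count of supported genes. No paired analysis was possible because each group had 1 array.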
